A study of Phaseolus vulgaris with 6 samples.

Results

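A set of 206 genes of the common bean (Phaseolus vulgaris) stood high in the trichome libraries AG and EPI and low in the hooked hair library group BG, out of 27433 genes listed for each library. They were chosen by their own measured levels, in TPM (a transcript level corrected for gene length and library size). A gene was taken when its lowest level in the 4 AG and EPI libraries was at least 20 TPM and at least 4 times its higher BG level. Genes that set AG and EPI apart by 2-fold or more, with no overlap, were left out. This removed 1 of 207 genes, Phvul.002G181000.v2.1, which stood at 22.0 and 22.7 TPM in AG and at 54.6 and 106 TPM in EPI. The contrast of trichomes with hooked hairs therefore defines the set, and the levels on either side of it are given as a description, with no test.

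All 6 libraries came from genotype L88-57, grown from seed in a growth chamber under low light without any treatment, with 2 libraries each for AG, EPI and BG. The labels name AG and EPI as trichomes and BG as hooked hairs and do not spell out the codes. Nothing states that libraries of a group were taken from different plants, so p-values below cover only their spread, perhaps a technical one. In RNA from pooled structures, fewer cells of a type and less RNA per cell cannot be told apart. The 6 libraries listed 19194 to 20556 genes at 1 TPM or more and lay within 1.47-fold of each other in depth, judged from the ratio of coverage to FPKM (fragments per kilobase and per total of fragments, the second unit of the files) at equal read length. Gene symbols and products are not given in the tables, so the genes below carry their Phvul numbers, no role can be given to any of them, and the labelled structures could not be checked against marker genes.

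Trichomes are outgrowths of epidermal cells. In many plants some of them are glandular, with cells that make and store secondary metabolites, waxes or proteins, while others are plain hairs. Hooked hairs are curved, pointed hairs that in beans are known for holding on to small insects.

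The 206 genes made up a larger part of the trichome libraries than of the BG libraries, as the choice of the genes requires. Summed over all of them, the level was 109545 and 69701 TPM in AG and 81986 and 70721 TPM in EPI. In BG it was 8178 and 5363 TPM. As a share of the TPM of all listed genes, this was 11.6% and 7.41% in AG, 8.53% and 7.38% in EPI, and 0.889% and 0.563% in BG. The median gene of the set held rank 802 and 1294.5 by level in AG, 1231 and 1321.5 in EPI, and 10848 and 13866 in BG. Between 21 and 38 of the genes were among the 100 most abundant of each trichome library, and 0 of them were in either BG library.

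The genes covered a wide range of levels. Their mean over the 4 trichome libraries ran from 26.6 to 4442 TPM, with a median of 161 TPM. It reached 1000 TPM in 21 genes, lay between 100 and 1000 TPM in 104, and was under 100 TPM in 81. The 21 most abundant were 30% of the 70 genes in the whole table that averaged 1000 TPM or more and kept 20 TPM in every trichome library. In the band from 100 to 1000 TPM, 6.31% of such genes belonged to the set, and below it 1.71%. The bands are cut on trichome level, which the choice of the genes also used, so nothing is read from these shares. The group mean was a median of 11.3-fold above BG in AG and 10.5-fold above BG in EPI, 2 comparisons that share the BG libraries.

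**Figure D1:**
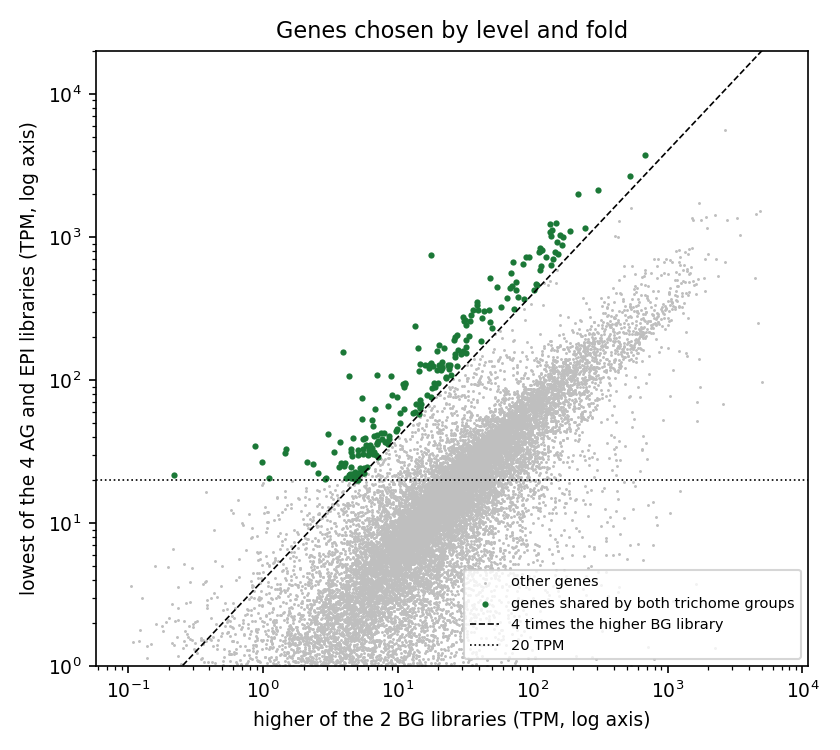
Each point is a gene, placed by its higher level in the 2 BG libraries and its lowest level in the 4 AG and EPI libraries, in TPM on log axes, for tested genes (1 TPM or more in at least 2 libraries) with a lowest trichome level of 1 TPM or more and a higher BG level of 0.1 TPM or more. The 206 chosen genes (green) lie above the dashed line of 4-fold and the dotted line of 20 TPM, and reach 3711 TPM in lowest trichome level.

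The gene with the highest mean level was Phvul.002G196400.v2.1 (chromosome 2, 36094319 to 36095316, minus strand). It stood at 5055 and 3711 TPM in AG, 4859 and 4143 TPM in EPI, and 677 and 379 TPM in BG. The trichome libraries differed little among themselves, and both BG libraries were far below them. Its mean was 8.30-fold above BG in AG and 8.53-fold above BG in EPI. Phvul.004G064800.v2.1 (chromosome 4, 9431905 to 9432796, plus strand) was second, with 7313 and 3262 TPM in AG, 3851 and 1987 TPM in EPI, and 218 and 110 TPM in BG. The library numbered 1 stood 2.24-fold above the library numbered 2 in AG, 1.94-fold in EPI and 1.98-fold in BG. Phvul.010G066400.v2.1 (chromosome 10, 25019438 to 25021034, plus strand) went the other way, with 2118 and 4315 TPM in AG, 3195 and 6625 TPM in EPI, and 57.5 and 307 TPM in BG.

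Other abundant genes varied to different degrees among the trichome libraries. Phvul.008G285100.v2.1 (chromosome 8) stood at 3488 and 2782 TPM in AG, 3897 and 2649 TPM in EPI, and 522 and 316 TPM in BG. Phvul.010G002100.v2.1 (chromosome 10) stood at 1667 and 1282 TPM in AG, 1591 and 1153 TPM in EPI, and 244 and 139 TPM in BG. These 2 genes thus still had high levels in the BG libraries. Phvul.001G050300.v2.1 (chromosome 1), with 1597 and 725 TPM in AG and 1677 and 1511 TPM in EPI, fell lower in BG, at 93.6 and 32.3 TPM. The shortest gene of the set by genomic span, Phvul.011G009700.v2.1 (chromosome 11, 726496 to 726816), had 321 bases and stood at 1646 and 1036 TPM in AG, 1716 and 1239 TPM in EPI, and 160 and 97.9 TPM in BG. The 12 most abundant genes together held 35.4% to 37.6% of the summed level of the 206 in the trichome libraries, and 33.0% and 33.1% in BG.

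**Figure D2:**
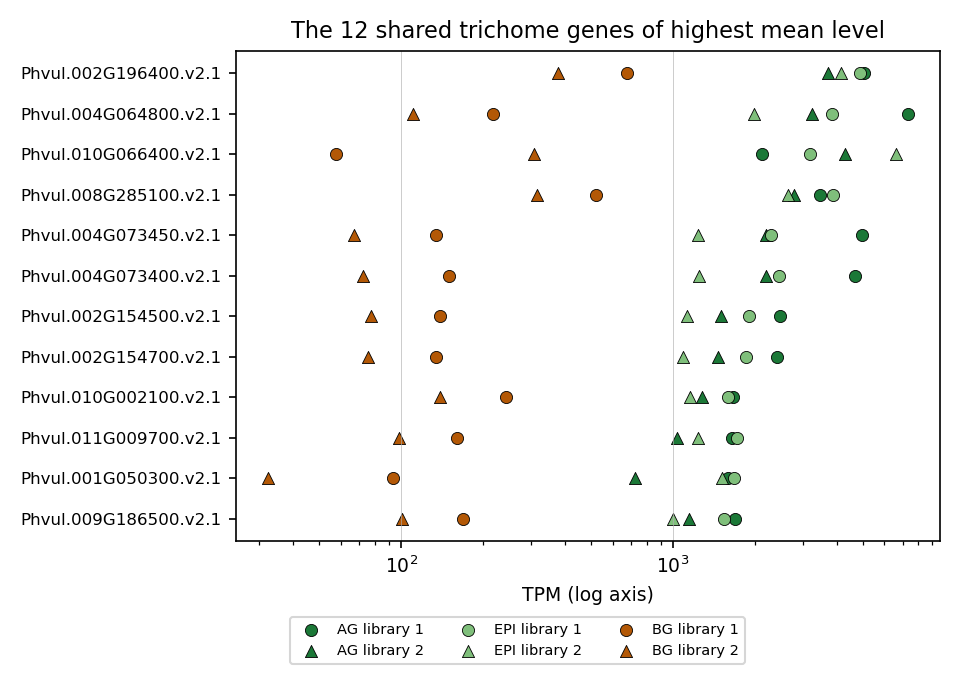
The level of the 12 genes with the highest trichome mean is plotted in each library, in TPM on a log axis, with circles for library 1 and triangles for library 2 of AG (dark green), EPI (light green) and BG (brown). All 4 trichome libraries lie above both BG libraries in every row, as the choice of the genes requires, and only Phvul.010G066400.v2.1 has its triangles to the right of its circles in all 3 groups.

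Most of these genes were still detected in the BG libraries. In 58 of the 206 genes both BG libraries kept at least 20 TPM, and in 35 both were under 5 TPM. They were under 1 TPM in 3 genes. The ratio of the lowest trichome library to the higher BG library had a median of 5.94 and was under 5 in 60 genes, at least 8 in 48, at least 16 in 10 and at least 32 in 4. Just inside the limit of 4 were Phvul.001G103300.v2.1 at 4.02 and Phvul.002G098700.v2.1 at 4.02, and just outside it Phvul.001G106900.v2.1 at 3.98 and Phvul.006G155800.v2.1 at 3.98. At the level limit, Phvul.009G037900.v2.1 was inside with a lowest trichome level of 20.03 TPM, and Phvul.009G003100.v2.1 was outside with 19.8 TPM.

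The 4 genes with the widest gap had very different levels. Phvul.003G166500.v2.1 (chromosome 3, 38670814 to 38671719) was a gene of modest level, with 60.97 and 27.3 TPM in AG, 25.7 and 21.6 TPM in EPI, and 0.220 and 0.153 TPM in BG. Its ratio of 98.4 rested on a mean BG coverage of 0.357 and 0.196 reads per base. Phvul.001G168900.v2.1, at 42533314 to 42534170 of chromosome 1, was among the abundant genes, with 822 and 756 TPM in AG, 743 and 2372 TPM in EPI, and 17.7 and 12.3 TPM in BG. Its BG values rested on 28.7 and 15.7 reads per base, and its ratio was 42.0. Phvul.006G033900.v2.1 (chromosome 6, 12767922 to 12769746) had 217 and 204 TPM in AG, 158 and 742 TPM in EPI, and 1.92 and 3.88 TPM in BG. In these last 2 genes EPI library 2 was the highest, and the other 3 trichome libraries lay close to each other. Phvul.009G186200.v2.1 (chromosome 9, 28177973 to 28180128) stood at 69.4 and 36.7 TPM in AG, 40.03 and 34.6 TPM in EPI and 0.872 TPM in BG library 1, and was listed at 0 in BG library 2. The same library also listed Phvul.008G142500.v2.1 and Phvul.010G005800.v2.1 at 0, while 0 of the 206 genes were at 0 in both BG libraries. Coverage was at least 16.5 reads per base for every gene of the set in each trichome library, and under 1 read per base for 1 gene in BG library 1 and 10 genes in BG library 2.

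In limma's test over 21571 genes, all 206 were called lower in BG than in the mean of AG and EPI (Benjamini-Hochberg adjusted p under 0.05), where 5.38% of the tested genes were. The choice of the genes used this contrast, so nothing is read from that count. All 206 also passed the filter on low values, as they had to, since the choice required 20 TPM in 4 libraries.

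The 2 libraries of a group differed in the same direction for most of the shared trichome genes. The choice of the genes did not use the order of the 2 libraries within a group. In 123 of the 206 genes, or 59.7%, the library numbered 1 was above the library numbered 2 in AG, in EPI and in BG. Over all tested genes this share was 9.38%, and over the 6262 other genes at 20 TPM or more in every trichome library it was 9.49%. The reverse order in all 3 groups held for 10 of the 206 genes, or 4.85%, against 25% of tested genes. Taken group by group, library 1 was the higher for 81.1% of the 206 genes in AG, 70.9% in EPI and 81.1% in BG, against 37.9%, 45.2% and 41.2% of the 6262 other genes. The median gene of the set was 1.59-fold higher in AG library 1 than in AG library 2, 1.23-fold in EPI and 1.54-fold in BG. Libraries that share a number were not stated to share a plant, a day or a batch, and a cause of this pattern was not tested.

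The pattern was strongest in the abundant genes. Library 1 was the higher in all 3 groups for 19 of the 21 genes with a trichome mean of 1000 TPM or more, for 74 of the 104 between 100 and 1000 TPM and for 30 of the 81 below. Among genes outside the set in the same 3 bands of level, the counts were 4 of 49, 186 of 1545 and 404 of 4668. After median-of-ratios scaling, which moves the libraries' levels against each other, the count in the set was 134, where 17.4% of tested genes followed the pattern. The 83 genes chosen by the mirrored rule, high in both BG libraries and low in trichomes, held 5 such genes. Group by group, library 1 was the higher for 67.5% of these 83 genes in AG, 74.7% in EPI and 21.7% in BG. In AG and EPI the lean to library 1 was thus not particular to the 206 genes. The trichome levels of the 83 were low, with a median mean of 3.61 TPM. Across the 206 genes, the log2 difference between libraries 1 and 2 correlated at r = 0.436 between AG and EPI, 0.358 between AG and BG and 0.254 between EPI and BG. Over all 21571 tested genes these values were -0.032, 0.096 and 0.245. They are descriptions across genes, which are not independent of each other and share their libraries.

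**Figure D3:**
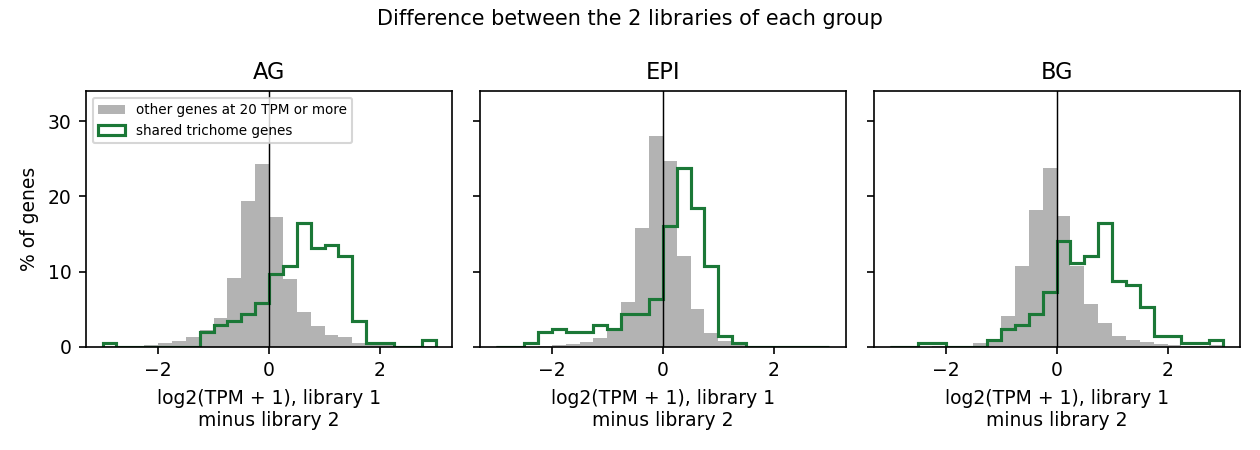
The difference between the 2 libraries of a group, library 1 minus library 2 on the log2(TPM + 1) scale, is drawn for the 206 shared trichome genes (green line) and for the 6262 other genes at 20 TPM or more in every trichome library (grey), as a percentage of genes, with differences beyond 3 placed in the outermost bars. The green line lies to the right of 0 for 81.1% of its genes in AG, 70.9% in EPI and 81.1% in BG, and the grey bars lie mostly to the left.

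The 123 genes also differed in level and span from the 73 genes without a common order. The 123 had a median trichome mean of 278 TPM and a median genomic span of 1677 bases, and the 73 genes without a common order had 59.3 TPM and 2614 bases. The 10 genes with library 2 the higher in every group had a median trichome mean of 212 TPM and a median span of 2282.5 bases. They were led by Phvul.010G066400.v2.1, given above, in which library 2 was 2.04-fold higher in AG, 2.07-fold in EPI and 5.34-fold in BG. Phvul.008G190900.v2.1 (chromosome 8, 53033639 to 53035576) stood at 129 and 307 TPM in AG, 194 and 857 TPM in EPI, and 5.99 and 14.5 TPM in BG. Phvul.006G107300.v2.1 (chromosome 6, 21701128 to 21704371) stood at 546 and 681 TPM in AG, 466 and 719 TPM in EPI, and 24.2 and 105 TPM in BG. Its BG libraries differed by more than its trichome libraries did.

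AG and EPI were near each other for most of the set, in which the choice of the genes limits their difference. On the log2(TPM + 1) scale the difference of EPI from AG had a median of -0.15 over the 206 genes, against 0.15 over all tested genes, and 189 of the 206 lay within 1 of 0. The sign of the first median rested on AG library 1, and it was 0.14 without that library. In the same test, 0 of the 206 genes and 0% of all tested genes were called between EPI and AG, with a smallest adjusted p of 0.168 by limma. At an unadjusted p under 0.05 there were 9 genes of the set and 3554 of all tested. Both AG libraries were above both EPI libraries in 24 genes of the set, where this held for 18% of tested genes, and the reverse in 17 genes, where it held for 30.7%. For the 189 genes within 1 of 0, the share over all tested genes is not given. The choice of the genes limits this contrast, and nothing is read from these counts.

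**Figure D4:**
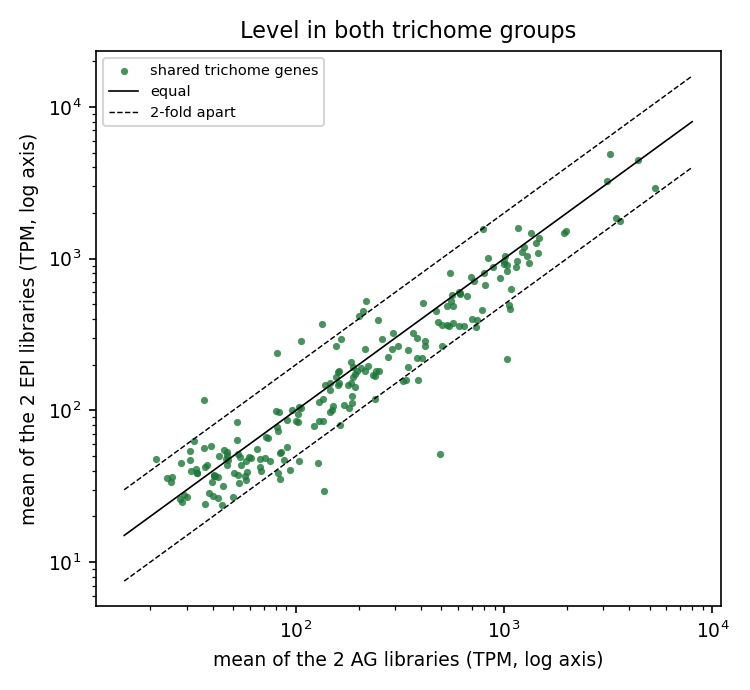
The mean level in the 2 EPI libraries is plotted against the mean level in the 2 AG libraries for the 206 genes, in TPM on log axes, with lines at equality and at 2-fold. On the log2(TPM + 1) scale, where library values are averaged after taking logs, 189 of the 206 genes differed by less than 1.

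Where AG and EPI stood apart, the 2 libraries of a group were often far apart as well. The choice of the genes favours this, and nothing is read from it. Genes whose AG and EPI libraries were 2-fold or more apart, with no overlap, had been left out. AG library 1 was the highest of the 4 trichome libraries in 134 of the 206 genes, and EPI library 2 the lowest in 88. No shares over all tested genes are given beside these counts, so no trait of the set is read from them. The largest gap on the AG side was in Phvul.007G055800.v2.1 (chromosome 7, 4657074 to 4663363), with 869 and 118 TPM in AG, 29.8 and 73.7 TPM in EPI, and 5.95 and 0.395 TPM in BG (log2 difference of EPI from AG -2.74 ± 1.12 SE, limma adjusted p = 0.296). Phvul.004G013500.v2.1 followed with 1477 and 583 TPM in AG, 318 and 118 TPM in EPI, and 19.7 and 3.37 TPM in BG (log2 difference -2.25 ± 0.86, adjusted p = 0.271). In both genes the AG and EPI libraries did not overlap, but the 2 AG libraries were far apart. On the EPI side, 6 genes had a log2 difference of 1 or more. Phvul.010G144300.v2.1 had the largest, at 22.4 and 379 TPM in AG and 251 and 588 TPM in EPI, with overlapping groups (log2 difference 2.03 ± 1.27, adjusted p = 0.468).

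All 6 of these genes were highest in EPI library 2. Phvul.006G107100.v2.1 stood at 39.2 and 33.1 TPM in AG, 59.0 and 176 TPM in EPI, and 1.49 and 0.436 TPM in BG. Phvul.011G183766.v2.1 stood at 109 and 157 TPM in AG, 214 and 529 TPM in EPI, and 5.002 and 6.97 TPM in BG. Both showed separated groups with EPI library 2 well above EPI library 1. In the whole set, EPI library 2 was at least 2 times EPI library 1 in 24 genes, and the reverse held in 4. In AG, library 1 was at least 2 times library 2 in 64 genes and the reverse held in 6. The corresponding counts in BG were 64 and 9. Shares over all tested genes are not given here either, so these counts do not tell the set from the libraries.

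Some of the shared trichome genes lay side by side in the genome, a property the choice of the genes did not use. Of the 206, 17 were next to another of them with no listed gene between, in 6 runs, which is 8.25% of the set. With at most 1 listed gene between, 27 genes in 9 groups did so. Under the mirrored rule, 2 of the 83 genes high in BG were next to each other, or 2.41%. With at most 1 listed gene between, 6 of the 83 did so, or 7.23%, against 13.1% of the 206. The sets differ in size, which alone changes such shares, so they are not like for like. No share for sets of equal size from all listed genes is given, so no excess of neighbours is read from these counts. The genes were found on all 11 chromosomes, with 2 on scaffolds, and among chromosomes number 4 held the highest share, with 23 of 1269 tested genes or 1.81%, against 0.602% on chromosome 3. Of the 23 genes on chromosome 4, 14 were the neighbouring genes described next, and 9 lay elsewhere on it. No chance test of the spread over chromosomes was made.

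Chromosome 4 carried 14 of the 27 neighbouring genes, in 3 groups. The first held 3 genes between 9431905 and 9502854, the second 4 genes between 22281504 and 22508255, and the third 7 genes between 22973859 and 23387528. A stretch of 12.8 Mb lay between the first and second groups. All 14 were short, with spans of 620 to 1518 bases. Their levels summed to 27608 and 12235 TPM in AG, 13787 and 7430 TPM in EPI, and 872 and 371 TPM in BG. The AG mean was thus 32.05-fold and the EPI mean 17.1-fold above the BG mean, and the 14 genes made up 25.2% and 17.6% of the summed level of the 206 genes in AG, 16.8% and 10.5% in EPI, and 10.7% and 6.92% in BG.

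The 14 genes moved together from library to library. AG library 1 was 1.96 to 2.50 times AG library 2, EPI library 1 was 1.62 to 1.96 times EPI library 2, and BG library 1 was 1.98 to 4.35 times BG library 2. All 14 belonged to the 123 genes with library 1 the higher in every group. Without them, 109 of the other 192 genes of the set showed that order. Phvul.004G073450.v2.1 and Phvul.004G073400.v2.1, in the first group, were nearly alike. The former stood at 4975 and 2209 TPM in AG, 2298 and 1235 TPM in EPI, and 134 and 67.2 TPM in BG, and the latter at 4695 and 2202 TPM in AG, 2447 and 1246 TPM in EPI, and 150 and 72.4 TPM in BG. In the third group, Phvul.004G091988.v2.1 was the most abundant gene, at 1536 and 624 TPM in AG, 819 and 450 TPM in EPI, and 54.4 and 20.6 TPM in BG. Whether these genes are similar in sequence was not examined, so the division of reads among them is uncertain.

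**Figure D5:**
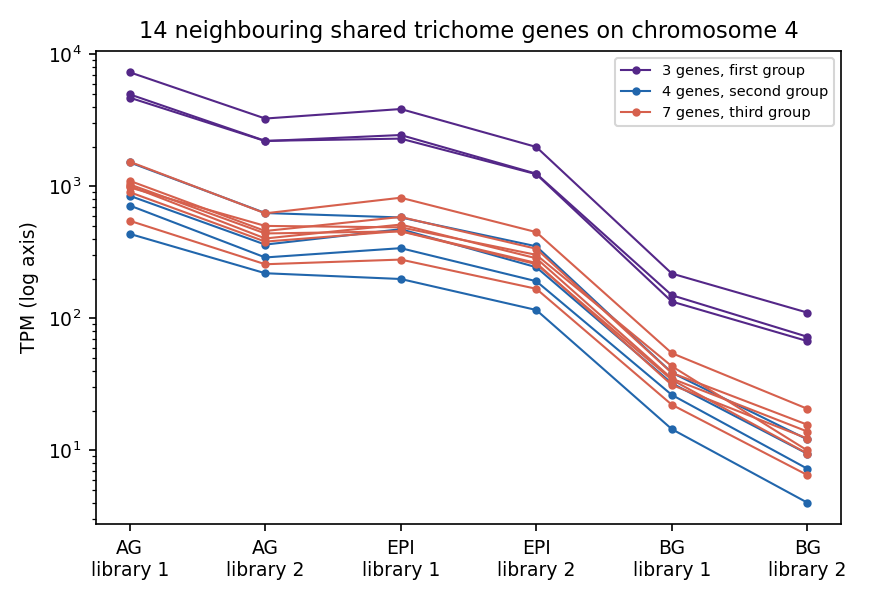
Each line joins the values of a gene in the 6 libraries, in TPM on a log axis, for the 14 neighbouring genes on chromosome 4, coloured by group along the chromosome. The lines run nearly parallel, with library 1 above library 2 in every group and the BG values lowest.

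The closest match in the set was a pair on chromosome 2 with 1 listed gene between them. Phvul.002G154500.v2.1 (30882375 to 30883587, minus strand) stood at 2480 and 1500 TPM in AG, 1908 and 1126 TPM in EPI, and 139 and 77.2 TPM in BG. Phvul.002G154700.v2.1 (30906653 to 30907912, plus strand) stood at 2412 and 1461 TPM in AG, 1861 and 1091 TPM in EPI, and 134 and 75.4 TPM in BG. The first was 1.02 to 1.04 times the second in every library, and the SD of their log2 ratio over the 6 libraries was 0.00814. Among the 20503 pairs of the 203 genes above 0 in all libraries, the median SD was 0.743 and 36 pairs were under 0.1. Of those 36, 14 pairs were among the chromosome 4 genes and 18 joined genes on different chromosomes, such as Phvul.008G015100.v2.1 and Phvul.007G005400.v2.1, with an SD of 0.0549. Whether the genes of such pairs are similar in sequence or share reads was not examined.

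Most neighbours elsewhere were less alike. On chromosome 6, Phvul.006G216600.v2.1, Phvul.006G216700.v2.1 and Phvul.006G216800.v2.1 were consecutive between 30914793 and 30924651 on the plus strand. The first stood at 1809 and 813 TPM in AG, 1176 and 704 TPM in EPI, and 142 and 60.2 TPM in BG. The second stood at 253 and 125 TPM in AG, 141 and 246 TPM in EPI, and 27.5 and 2.45 TPM in BG, so that its order in EPI was the reverse of that of its neighbours. The third stood at 354 and 150 TPM in AG, 243 and 118 TPM in EPI, and 20.8 and 11.5 TPM in BG. It followed the first more closely, with an SD of their log2 ratio of 0.179. Within the chromosome 4 groups this SD reached 0.296. On chromosome 7, Phvul.007G055800.v2.1, the gene with the largest AG excess, lay next to Phvul.007G055900.v2.1, which was nearly level across trichomes at 1315 and 1114 TPM in AG and 1116 and 1099 TPM in EPI, with 188 and 156 TPM in BG.

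The shared trichome genes were also short. Their genomic span, introns included, had a median of 2197.5 bases, against 3713.5 bases for the 6262 other genes at 20 TPM or more in every trichome library. It was under 1000 bases in 34 of the 206 genes, or 16.5%, and in 5.96% of the others. Abundant genes were shorter in general, but the difference was in the same direction within each band of level. The medians were 1248 bases in the set and 1559 bases outside it at 1000 TPM or more, 1878 and 2633 bases between 100 and 1000 TPM, and 3008 and 4205 bases below. The 83 genes high in BG by the mirrored rule were short as well, with a median of 1792 bases. The set had 99 genes on the plus strand, and 7 genes overlapped another listed gene, 1 of them on the same strand, so their reads may be shared.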

How the data were processed

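Messenger RNA of 6 libraries was analysed from the deposited tables, 1 per library, and titles gave the group and number of each. An RNeasy kit served for RNA and a SMARTER kit for the libraries, per the labels' protocols. Trimmomatic, HISAT2 and StringTie are named, without versions, in the submitters' processing notes, and the genome build and strand setting are not given in the sources used here. Coordinates are as the files give them. The deposited TPM values were used throughout, the deposited FPKM values as an alternative, and the deposited coverage, a signal per base made by the authors, for depth only. No counts were used, so no counting intervals are given.

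Of the files' gene IDs, 0 occur in the RefSeq gene table (34165 rows, assembly P. vulgaris v2.0), so the planned product lists and cell type markers could not be applied. The fixed naming rule then allowed 2 IDs, the most abundant genes. The further IDs were chosen after their values were seen. The genes and the lists were chosen with earlier results of these data known.

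Values were tested as log2(TPM + 1) with limma 3.58.1 in R 4.3.3, 1 mean per group over all 6 libraries, with a trend on mean level, two-sided, over 21571 genes with at least 1 TPM in 2 libraries. A pseudocount of 1 understates changes of low genes. The fit was tested on simulated data. With 2 libraries against 2, an exact permutation test of a gene cannot go below p = 0.33. Alternatives were other floors and folds, pseudocounts, filters, FPKM, median-of-ratios scaling, no trend, a replicate block and each library left out.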

Additional observations from a re-analysis of the deposited data

How the results depend on the processing

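The number of genes in the set was 318 genes at 3-fold and 48 at 8-fold, against 206, and 282 and 142 with a floor of 10 or 40 TPM. It was 146 on FPKM values at the same numbers, and 209 after median-of-ratios scaling, with 198 genes shared. Leaving out a library gave 212 (AG replicate 2) to 340 genes (BG replicate 1), with 239 without BG replicate 2 and 257 without EPI replicate 1, and 160 of the 206 were kept in all 6 such settings. Genes called in BG against both trichome groups numbered 1874, and 1046 without the filter on low values. They ranged from 0 (without BG replicate 2) to 2455 (without EPI replicate 1), with 234 without BG replicate 1 and 1081 without AG replicate 1. Between EPI and AG the count was 0 in every setting run except without EPI replicate 2, where it was 14, so the range over left-out libraries was 0 to 14. A fit that leaves a group with 1 library assumes that it varies like the others. The median log2 difference of trichomes over BG was 3.34, and 2.72 with a pseudocount of 10. Leaving out a library gave 3.07 to 3.70 for it, and -0.49 to 0.14 for the median difference of EPI over AG. The number of genes next to another of the set was 17, and 27 with at most 1 gene between. The count of genes higher in library 1 of all groups was 123, and 124 on FPKM values, 138 by AG and EPI alone, 143 by AG and BG alone and 126 by EPI and BG alone (10.7%, 15.2%, 16.7% and 26.5% of tested genes), alternatives chosen after seeing the data. With a replicate block, 1601 genes were called in BG against trichomes and 0 in EPI against AG. Over all tested genes, differences between libraries 1 and 2 correlated at -0.032 between AG and EPI, 0.096 between AG and BG and 0.245 between EPI and BG. Over the 206 genes the values were 0.254 to 0.436. Since not every value over all tested genes passed 0.1, and nothing in the labels pairs the libraries, the numbers were not taken as a pairing. The causes of these shifts were not tested.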
